A study of Mus musculus with 8 samples.

Results

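The genes described here are 10 immediate early transcription factor and response genes: Fos, Fosb and Fosl2 of the FOS family, Jun, Junb and Jund of the JUN family, the ATF family gene Atf3, the EGR gene Egr1, and Ier2 and Ier3. They were taken from the table by symbol, from a list drawn up with earlier results of these data known. The deposited table lists 18187 gene symbols, and all 10 genes were in it and among the 13278 genes that passed the filter on low counts. Bulk RNA sequencing was done on mouse neutrophils linked to B16 tumors, B16 being a melanoma cell line of the mouse. The aOX40 group has 3 libraries, replicates 1 to 3, and the IgG group has 5 libraries, replicates 2 to 6; both groups carry the same tumor and cell type labels and differ in the treatment label alone. OX40 is a costimulatory receptor of T cells, and the series title places the libraries in a study of neutrophils under T cell immunotherapy. The sources used here do not give mouse strain, age, dose, time of harvest or the way the neutrophils were isolated. The labels also do not say that libraries came from separate animals, so p-values measure only how much these libraries vary, and that spread may be technical.

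Immediate early genes are transcribed soon after a cell is stimulated, from factors that are already present and without new protein synthesis. FOS and JUN proteins pair through leucine zippers to form AP-1, which binds DNA motifs of the TGANTCA type, while ATF3, a stress-induced member of the ATF and CREB family, often acts as a repressor and can pair with JUN proteins. EGR1 is a zinc finger factor induced through serum response factor and MAP kinases. In myeloid cells these genes follow adhesion, cytokines and microbial products, and they are also known to be induced when tissue is dissociated.

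Atf3 and Fosl2 fell in aOX40 neutrophils, to 0.373 and 0.516 of their IgG level in the fit. Jun, Fos, Fosb and Jund had log2 fold changes below 0 and Ier2, Junb, Egr1 and Ier3 above 0, and none of these 8 passed the threshold of an adjusted p of 0.05. The calls of Atf3 and Fosl2 depended on the analysis: of 18 alternatives, 12 called Atf3 and 6 called Fosl2. With aOX40 replicate 1, 2 or 3 left out, 0 of the 10 genes passed. The groups did not overlap for Atf3 and Fosl2, lower in aOX40, or for Ier2, higher in aOX40. The 3 genes whose groups did not overlap thus lay on both sides of 0. Of all genes tested, 7.75% did not overlap with aOX40 lower and 8.22% with aOX40 higher.

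Promoter sequences are shown for the 2 genes that fell, Atf3 and Fosl2, beside Fos and Junb, members of the same FOS and JUN families that did not pass the test. Each is the 250 bases before the gene's start in RefSeq on GRCm38.p6, in which 8 of the 10 genes had an entry (Egr1 and Ier2 are named here only). The starts are those of RefSeq's entry for each gene, and the windows of Atf3 and Fosl2 lie inside the longer gene spans of the GENCODE annotation given below, which begin further upstream. The Jund window, at chr8:70697489-70697738, ends before the GENCODE start of Jund at 70698949 and does not adjoin it. It is still counted among the 8 below. Atf3 lies on the minus strand at chr1:191183334-191183583, Fosl2 on the plus strand at chr5:32136222-32136471, Fos on the plus strand at chr12:85473640-85473889 and Junb on the minus strand at chr8:84978749-84978998. Capitals mark TGACG, the core of the site that ATF and CREB proteins bind, or its reverse complement CGTCA.
Atf3: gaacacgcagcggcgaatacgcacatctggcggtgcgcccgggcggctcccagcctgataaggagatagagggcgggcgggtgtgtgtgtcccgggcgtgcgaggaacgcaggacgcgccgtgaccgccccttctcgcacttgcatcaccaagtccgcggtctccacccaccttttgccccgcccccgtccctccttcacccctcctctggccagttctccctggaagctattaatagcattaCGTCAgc
Fosl2: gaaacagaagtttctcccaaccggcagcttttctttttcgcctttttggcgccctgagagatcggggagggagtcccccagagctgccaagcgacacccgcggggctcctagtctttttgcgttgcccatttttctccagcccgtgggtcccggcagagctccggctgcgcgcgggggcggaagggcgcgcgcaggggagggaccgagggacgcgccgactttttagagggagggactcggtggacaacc
Fos: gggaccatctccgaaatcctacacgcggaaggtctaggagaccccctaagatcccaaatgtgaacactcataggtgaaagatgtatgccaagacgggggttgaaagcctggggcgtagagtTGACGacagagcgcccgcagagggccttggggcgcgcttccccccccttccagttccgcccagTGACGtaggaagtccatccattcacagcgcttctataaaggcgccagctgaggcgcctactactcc
Junb: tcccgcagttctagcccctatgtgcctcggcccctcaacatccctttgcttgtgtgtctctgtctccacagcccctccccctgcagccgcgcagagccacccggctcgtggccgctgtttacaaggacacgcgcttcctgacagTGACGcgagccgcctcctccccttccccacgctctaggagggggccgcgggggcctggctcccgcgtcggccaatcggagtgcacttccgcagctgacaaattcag
In Atf3 the match begins 7 bases before the start and reads on the opposite strand, in Fos the matches begin 129 and 66 bases before the start, and in Junb the match begins 106 bases before it. The Fosl2 window held no match. Searched on both strands, TGACG was in the windows of 4 of the 8 genes (Atf3, Fosb, Junb and Fos) and in 17.9% of 27025 RefSeq promoters of the same length. The full palindrome TGACGTCA, which holds TGACG, was in 0 of the 8 and in 1.62% of all promoters. The AP-1 motif TGANTCA was in 0 of the 8 and in 6.87% of all. The TATA box TATAAA was in the window of Fos alone among the 8 (13.0% of all promoters), and CCAAT was in those of Jun, Junb and Ier3 (34.5% of all). The EGR motif GCGTGGGCG and the CArG box of serum response factor were in 0 of the 8, against 0.540% and 1.40% of all promoters. Sites further than 250 bases upstream were not searched, nor were Egr1 and Ier2, so a count of 0 does not mean that a gene lacks the motif. These are letter matches and not binding sites, and Atf3 and Fosl2, which both fell, did not share the TGACG match.

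The libraries held 69.6 to 73.5 M estimated counts in aOX40 and 52.7 to 63.2 M in IgG, and an exact permutation test of this difference, two-sided, gave p = 0.0357, the lowest value reachable with 3 and 5 libraries. Mitochondrial mRNA took 0.0998% to 0.152% of counts in aOX40 and 0.0510% to 0.0811% in IgG (exact permutation p = 0.0357), while its sum after TMM scaling overlapped, with 914.7 to 1200.3 CPM in aOX40 and 571 to 929 CPM in IgG (exact permutation p = 0.0714). Neutrophil markers, of which 22 of 23 were in the table, summed to 38240 to 45844 CPM in aOX40 and 34287 to 49873 CPM in IgG (CPM, TMM-scaled counts per M counts, where M is mega), and S100a8 averaged 5773 ± 2032 CPM in aOX40 and 5596 ± 1504 CPM in IgG (SD, n = 3 and 5). S100a9 averaged 7088 ± 2469 CPM in aOX40 and 8066 ± 1717 CPM in IgG, and Csf3r, the G-CSF receptor gene, 690.0 ± 200 CPM in aOX40 and 880.2 ± 205 CPM in IgG, and none of these 3 passed the test. Of the 21 neutrophil markers tested, 3 passed the test, each higher in aOX40: Mmp9, described below, the collagenase gene Mmp8, at a mean of 1093 ± 543 CPM in aOX40 against 479 ± 111 CPM in IgG (edgeR adjusted p = 0.0443), and the surface protein gene Cd177, at 366 ± 217 CPM in aOX40 against 145 ± 29.2 CPM in IgG (edgeR adjusted p = 0.0414). These calls depended on the analysis: limma voom, and edgeR without aOX40 replicate 2 or 3, called 0 of the neutrophil markers. The same held for edgeR without IgG replicate 2, 3 or 6. It also held with no filter on low counts, the length offset, the older dispersions and the replicate block. DESeq2 called 4 higher and 1 lower. Of the macrophage and monocyte markers, 13 of 14 were in the table with a sum of 3071 to 4480 CPM in aOX40 and 2585 to 4064 CPM in IgG, and of the 11 tested 1 rose and 1 fell. Adgre1, which encodes F4/80, rose (21.6 ± 6.37 CPM in aOX40, 6.12 ± 2.62 CPM in IgG, edgeR adjusted p = 0.0248), Cd68 fell (639 ± 208 CPM in aOX40, 1272 ± 168 CPM in IgG, edgeR adjusted p = 0.0362), and Csf1r had 51.2 ± 21.2 CPM in aOX40 and 17.5 ± 8.26 CPM in IgG (edgeR adjusted p = 0.0546). Without aOX40 replicate 2 or 3, or IgG replicate 2, 4, 5 or 6, edgeR called 0 genes of this list lower. The sum of dendritic cell markers was 11.3 to 20.2 CPM in aOX40 and 22.5 to 41.0 CPM in IgG (exact permutation p = 0.0357), with 5 of 8 in the table and Flt3 and Zbtb46 below 1 CPM throughout. Itgax, which other myeloid cells also express, made up most of that sum, with 15.4 ± 4.07 CPM in aOX40 and 30.9 ± 7.83 CPM in IgG (edgeR adjusted p = 0.0697). For T and NK cells, 9 of 13 markers were in the table, with a sum of 1.40 to 18.2 CPM in aOX40 and 1.35 to 6.16 CPM in IgG, and Cd4 and Cd8a stayed below 1 CPM. B cell markers (2 of 6 in the table) summed to 65.1 to 77.7 CPM in aOX40 and 30.1 to 251 CPM in IgG, and fibroblast and endothelial markers (5 of 10 in the table) to 24.6 to 27.7 CPM in aOX40 and 17.4 to 65.6 CPM in IgG. Of the 3 fibroblast and endothelial genes tested, the collagen gene Col1a1 fell (1.72 ± 0.49 CPM in aOX40, 15.01 ± 11.8 CPM in IgG, edgeR adjusted p = 0.0414), and the endothelial gene Pecam1 had 4.61 ± 1.29 CPM in aOX40 and 13.8 ± 9.22 CPM in IgG (edgeR adjusted p = 0.110). Of these 3, limma voom called 0 and DESeq2 called 2 lower. IgG replicate 2 had the highest sum of melanoma markers, 389 CPM, against 39.3 to 86.0 CPM in aOX40 and 67.3 to 136 CPM in the other IgG libraries; 373 CPM of it came from Gpnmb, which macrophages also express, and Tyr and Sox10 were below 1 CPM in all 8 libraries. The part of depth, mitochondrial RNA or these markers in the results was not tested. In bulk RNA, fewer cells of a type and less RNA per cell cannot be told apart.

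Of the 10 genes, 2 passed the test, against 5.65% of all genes tested (750 of 13278), and both were lower, against 3.00% of all genes called lower. Of the genes tested, 2.64% were called higher, beside 0 of the 10 (1 of them, Ier2, was higher at an unadjusted edgeR p of 0.0259, and DESeq2 and limma voom called 0 higher). The groups did not overlap for 3 of the 10: 2 were lower in aOX40, against 7.75% of all genes, and 1 was higher, against 8.22% of all genes. In the edgeR fit, 4 of the 10 had an unadjusted p below 0.05, against 24.8% of all genes. The median log2 fold change of the 10 was -0.24, beside 0.045 for all genes tested, and 6 of the 10 lay below 0, as did 47.8% of all genes.

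**Figure D1:**
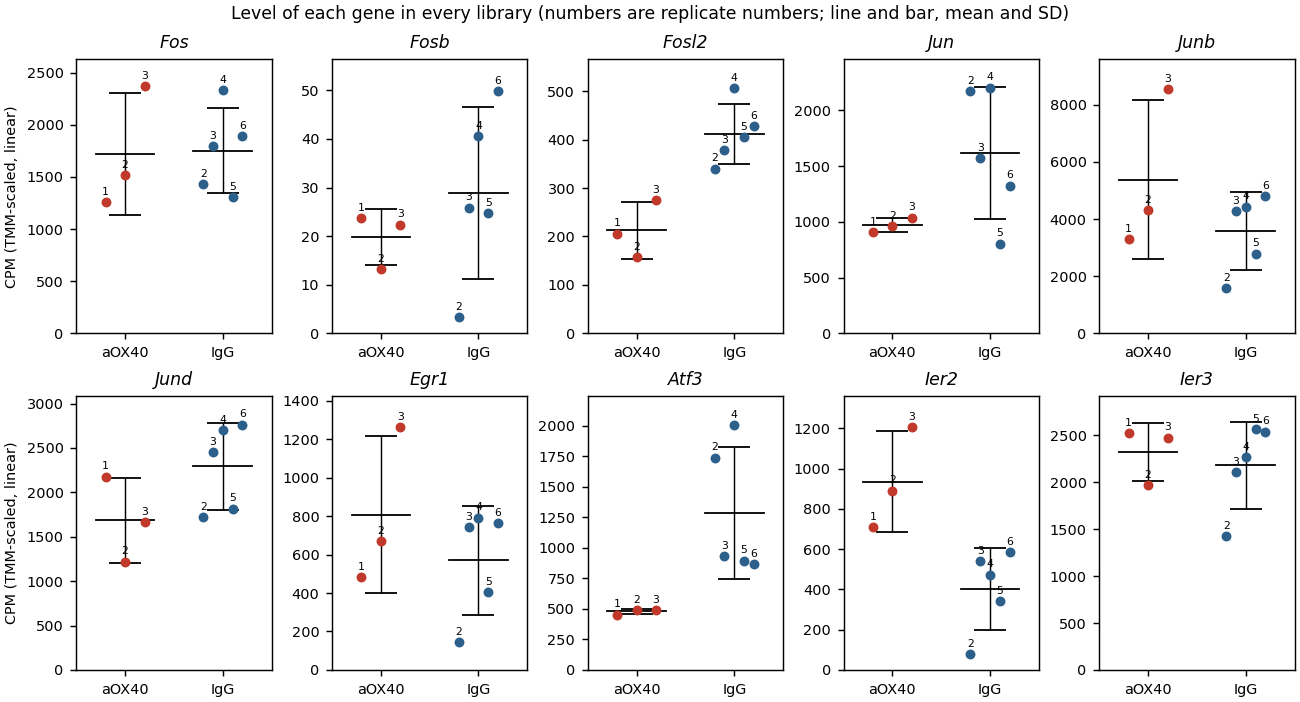
Each panel plots the linear, TMM-scaled CPM of 1 gene in the 3 aOX40 and 5 IgG libraries, with the replicate number beside each point and the mean and SD as a line and a bar. The aOX40 points lie below all IgG points for Atf3 and Fosl2 and above all of them for Ier2, and the groups overlap for the other 7 genes.

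**Figure D2:**
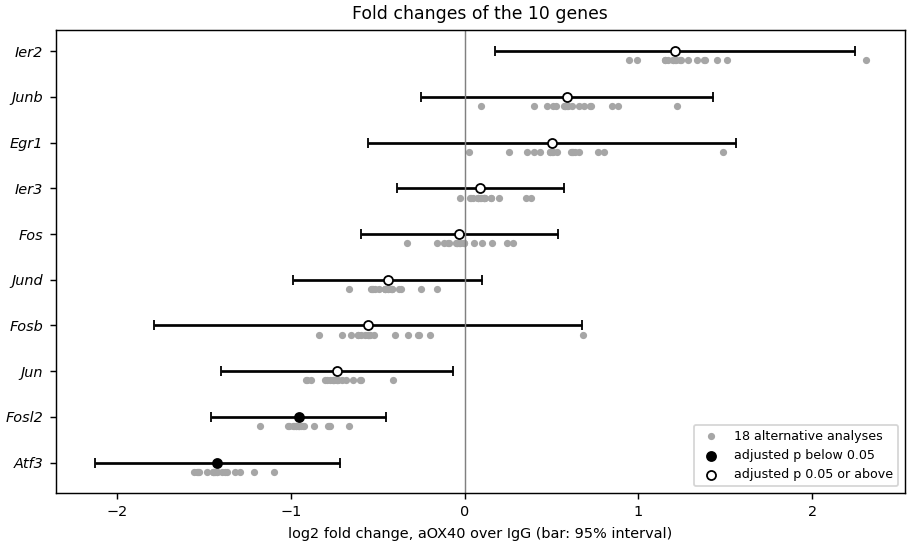
Log2 fold changes of the 10 genes, aOX40 over IgG, with 95% intervals from the edgeR fit, and in grey the values under 18 alternative analyses. Filled symbols mark Atf3 (-1.42) and Fosl2 (-0.95), and the grey points of Fos lie on both sides of 0.

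Atf3, on chromosome 1 (191170296 to 191218039, minus strand, GRCm38), had the lowest log2 fold change of the 10. Its change was the largest in size in the edgeR fit, but Ier2 was the larger with total-count scaling (1.51, against -1.10 for Atf3), limma voom (1.45, against -1.32) and without IgG replicate 4 (1.28, against -1.21). With the replicate block, given below, Ier2 was also the larger, at 2.31. Atf3 stood at 453, 493 and 493 CPM in aOX40 replicates 1 to 3, against 1738, 931, 2001, 895 and 866 CPM in IgG replicates 2 to 6. The aOX40 libraries lay close together, with a coefficient of variation of 4.83%, while the IgG libraries split into a high pair (replicates 2 and 4) and 3 lower ones, with 42.1%. The means were 479 ± 23.1 CPM in aOX40 and 1286 ± 541 CPM in IgG (SD, n = 3 and 5), and the log2 fold change was -1.42 (SE 0.32, 95% interval -2.13 to -0.72, adjusted p = 0.0326, edgeR's quasi-likelihood test). By p it ranked 410 of the 13278 genes. The call was lost in edgeR without aOX40 replicate 1 (adjusted p = 0.0781), aOX40 replicate 2 (0.142), aOX40 replicate 3 (0.102) or IgG replicate 2 (0.0510), and over 18 alternatives the adjusted p ran from 0.000371 to 0.238, with 12 past the threshold.

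Among the FOS family, Fosl2 fell and Fos and Fosb did not pass the test. Fosl2, which encodes FRA2, an AP-1 subunit without the transactivation domain of FOS, lies on chromosome 5 (32135801 to 32157842, plus strand). It had 206, 157 and 275 CPM in aOX40 replicates 1 to 3, against 340, 378, 507, 405 and 428 CPM in IgG replicates 2 to 6. The highest aOX40 library, replicate 3, lay below the lowest IgG library, replicate 2. Fosl2 averaged 212 ± 59.3 CPM in aOX40 and 412 ± 62.4 CPM in IgG (SD, n = 3 and 5), a log2 fold change of -0.95 (SE 0.23, 95% interval -1.46 to -0.45, edgeR adjusted p = 0.0395). The call was near the threshold: of the 8 edgeR fits with 1 library left out, Fosl2 passed only in that without IgG replicate 2 (0.0411), and the others gave 0.0825, 0.187 and 0.0632 without aOX40 replicates 1, 2 and 3 and 0.0574, 0.0588, 0.0584 and 0.0657 without IgG replicates 3, 4, 5 and 6. Over all 18 alternatives its adjusted p ran from 0.000749 to 0.259, with 6 past the threshold.

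Fos, the founding AP-1 gene, lies on chromosome 12 (85473890 to 85477273, plus strand). Fos was at 1256, 1521 and 2374 CPM in aOX40 replicates 1 to 3, against 1434, 1797, 2336, 1306 and 1891 CPM in IgG replicates 2 to 6. The groups spanned nearly the same range, with aOX40 holding both the lowest library (replicate 1) and the highest (replicate 3). Its log2 fold change was -0.030 (SE 0.26, 95% interval -0.60 to 0.54, edgeR adjusted p = 0.960), and its sign turned in 5 of 18 alternatives, among them total-count scaling at 0.28. Fosb, on chromosome 7 (19302696 to 19310051, minus strand), encodes another FOS protein with a transactivation domain and had the lowest level of the 10 per kb of exonic length. It had 23.7, 13.2 and 22.4 CPM in aOX40 replicates 1 to 3, against 3.30, 25.9, 40.5, 24.7 and 49.9 CPM in IgG replicates 2 to 6. IgG replicate 2 stood far below the other 4 IgG libraries, which gave a 15.1-fold range within IgG. The log2 fold change of Fosb was -0.56 (SE 0.56, 95% interval -1.79 to 0.67, edgeR adjusted p = 0.581), and its smallest count in any library was 161.

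None of the 3 JUN genes passed the test; edgeR gave Jun an unadjusted p below 0.05 and neither of the others, and DESeq2 and limma voom called 0 of the 3. Jun, the main AP-1 partner of FOS, lies on chromosome 4 (95049034 to 95052222, minus strand). Jun stood at 911, 964 and 1037 CPM in aOX40 replicates 1 to 3, against 2172, 1570, 2202, 804 and 1324 CPM in IgG replicates 2 to 6. The 3 aOX40 libraries lay below 4 of the 5 IgG libraries and above replicate 5, with coefficients of variation of 6.54% in aOX40 and 36.6% in IgG. The log2 fold change was -0.73 (SE 0.30, 95% interval -1.40 to -0.066, edgeR adjusted p = 0.165). As for Atf3, IgG replicates 2 and 4 were the highest libraries.

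Junb, on chromosome 8 (84974484 to 84978718, minus strand), encodes a JUN protein that can oppose JUN at AP-1 sites and is abundant in myeloid cells. Junb had 3287, 4304 and 8537 CPM in aOX40 replicates 1 to 3, against 1583, 4276, 4434, 2788 and 4805 CPM in IgG replicates 2 to 6. Replicate 3 of aOX40 was far above every other library, and the remaining aOX40 libraries lay inside the IgG range. Its log2 fold change was 0.59 (SE 0.38, 95% interval -0.25 to 1.43, edgeR adjusted p = 0.373), and 0.093 without aOX40 replicate 3. Jund, on chromosome 8 (70698949 to 70700616, plus strand), is the JUN gene that most resting cells express. Jund had 2176, 1219 and 1663 CPM in aOX40 replicates 1 to 3, against 1725, 2453, 2697, 1817 and 2763 CPM in IgG replicates 2 to 6. The lowest 2 of the 8 values were aOX40 libraries and the groups overlapped through aOX40 replicate 1. The log2 fold change was -0.44 (SE 0.25, 95% interval -0.99 to 0.10, edgeR adjusted p = 0.297). The sources used here do not say whether the counting used strand. Jun overlaps its antisense gene Junos, which averaged 2.71 ± 1.30 CPM in aOX40 and 1.69 ± 0.67 CPM in IgG, and Junb overlaps Prdx2 on the other strand, which averaged 5.71 ± 0.42 CPM in aOX40 and 4.69 ± 3.07 CPM in IgG (SD, n = 3 and 5). Both were a small part of the JUN gene's level.

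Egr1 lies on chromosome 18 (34859823 to 34864984, plus strand). Egr1 had 485, 671 and 1264 CPM in aOX40 replicates 1 to 3, against 145, 742, 792, 406 and 762 CPM in IgG replicates 2 to 6. Its lowest library was IgG replicate 2 and its highest aOX40 replicate 3, and the rest of both groups overlapped. The log2 fold change was 0.50 (SE 0.48, 95% interval -0.56 to 1.56, edgeR adjusted p = 0.558); it was 0.027 without aOX40 replicate 3 and 0.26 without IgG replicate 2.

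Ier2, a nuclear regulator of transcription on chromosome 8 (84661331 to 84662852, minus strand), had the highest log2 fold change of the 10 in the edgeR fit. Ier2 stood at 709, 891 and 1205 CPM in aOX40 replicates 1 to 3, against 79.0, 542, 474, 341 and 584 CPM in IgG replicates 2 to 6. All 3 aOX40 libraries lay above all 5 IgG libraries, and IgG replicate 2 was far below the rest. The log2 fold change was 1.21 (SE 0.47, 95% interval 0.18 to 2.24) and the edgeR adjusted p was 0.144, so Ier2 did not pass the test; over the 18 alternatives it ran from 0.0600 to 0.356, with 0.0600 and a log2 fold change of 0.95 without IgG replicate 2. Ier3, which encodes a protein that acts on cell survival, lies on chromosome 17 (35821684 to 35822923, plus strand). Ier3 had 2520, 1971 and 2475 CPM in aOX40 replicates 1 to 3, against 1426, 2104, 2270, 2565 and 2541 CPM in IgG replicates 2 to 6. The aOX40 values fell inside the IgG range, and the log2 fold change was 0.090 (SE 0.22, 95% interval -0.39 to 0.57, edgeR adjusted p = 0.842).

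The 10 genes also differed between libraries of 1 group. Replicate 3 of aOX40 was the highest of its group for 6 genes (Fos, Fosl2, Jun, Junb, Egr1 and Ier2), and replicate 1 was the lowest for 6. Replicate 2 of IgG was the lowest of its group for 7 genes (Fosb, Fosl2, Junb, Jund, Egr1, Ier2 and Ier3), yet it was above the IgG mean for Jun and Atf3. Relative to the IgG mean of log2 CPM, IgG replicate 2 stood at -2.68 for Fosb, -2.07 for Ier2, -1.74 for Egr1 and -1.07 for Junb, but at 0.52 for Jun and 0.53 for Atf3. It was also the library with the highest melanoma marker sum given above.

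**Figure D3:**
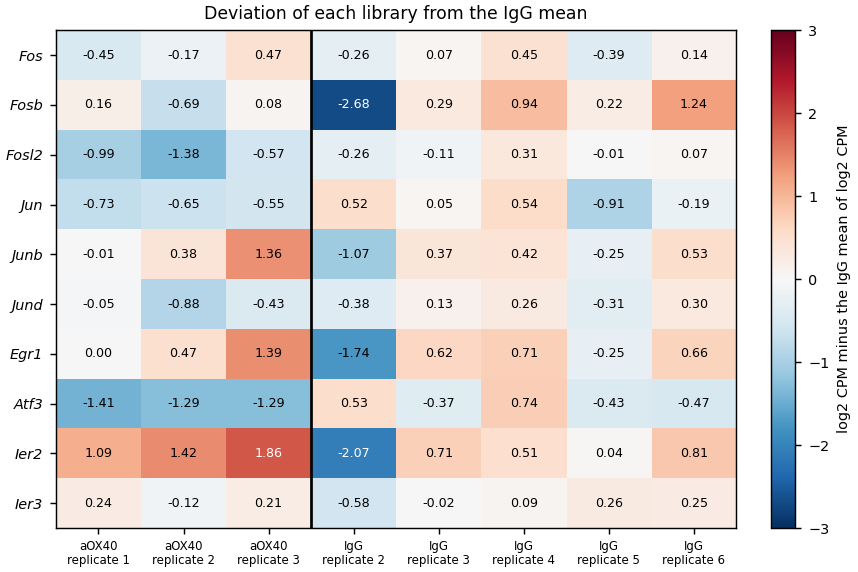
Heat map of log2 CPM minus the IgG mean of log2 CPM for each gene (rows) in each library (columns, aOX40 left of the line). Atf3 is between -1.41 and -1.29 in all 3 aOX40 libraries, and IgG replicate 2 is the low library for Fosb, Egr1 and Ier2.

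Levels of different genes were compared per kilobase of exonic length. In aOX40, Junb led with a mean of 2337 CPM per kb, followed by Ier3 (2053), Jund (1011), Fos (730), Ier2 (614), Jun (304), Atf3 (222), Egr1 (180), Fosl2 (21.9) and Fosb (3.17). In IgG, Ier3 led with a mean of 1929 CPM per kb, followed by Junb (1555), Jund (1373), Fos (745), Atf3 (597), Jun (506), Ier2 (266), Egr1 (127), Fosl2 (42.5) and Fosb (4.62). Junb and Ier3 led and Egr1, Fosl2 and Fosb closed both orders, while Ier2 stood above Atf3 in aOX40 and below it in IgG. Neighbours such as Junb and Ier3 overlapped in their libraries, Junb at 1429 to 3710 and Ier3 at 1742 to 2228 CPM per kb in aOX40.

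Within the FOS family, Fos itself made up 95.5%, 97.2% and 96.9% of the summed CPM per kb in aOX40 replicates 1 to 3, against 94.5%, 94.6%, 94.4%, 92.4% and 93.9% in IgG replicates 2 to 6. The share of Fosl2 was 3.80%, 2.44% and 2.73% in aOX40, against 5.44%, 4.84%, 4.98%, 6.96% and 5.16% in IgG. The groups did not overlap in either share, and they rest on the same values as the Fosl2 level given above. Within the JUN family the share of Junb was 47.3%, 64.4% and 73.7% in aOX40, against 28.6%, 48.6%, 45.5%, 47.5% and 50.2% in IgG. Those of Jun were 6.46% to 10.4% in aOX40 and 9.88% to 28.4% in IgG, and all JUN shares overlapped between the groups. The summed level of the family was 3652 ± 1197 CPM per kb in aOX40 and 3434 ± 889 in IgG for JUN, and 755 ± 253 in aOX40 and 792 ± 180 in IgG for FOS (SD, n = 3 and 5).

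**Figure D4:**
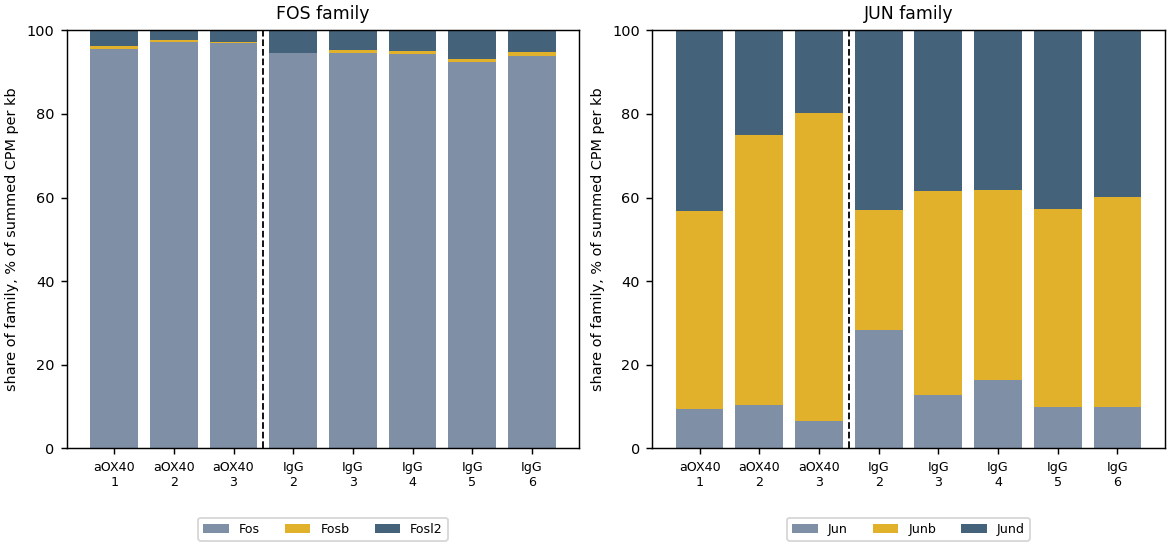
Stacked bars give each gene's share, in %, of the summed CPM per kb of the FOS family (left) and the JUN family (right) in every library, aOX40 left of the dashed line. Fos fills over 92% of the FOS family in each library, while Junb varies from 28.6% in IgG replicate 2 to 73.7% in aOX40 replicate 3.

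Of the other genes that pair with or resemble these factors, 3 were called, each lower in aOX40: Batf2, Creb5 and Ddit3. Beside the list counts here and below, 5.65% of all genes tested were called, 2.64% higher and 3.00% lower. Of 5 other AP-1 genes, 1 was called, lower: Batf2, a basic leucine zipper gene induced by interferon, averaged 28.0 ± 10.02 CPM in aOX40 and 81.4 ± 22.0 CPM in IgG (a log2 difference of -1.54, SE 0.31, edgeR adjusted p = 0.0239). Of 11 ATF and CREB genes, 1 was called, lower: Creb5 (21.1 ± 2.63 CPM in aOX40, 55.5 ± 17.1 CPM in IgG, log2 fold change -1.39, edgeR adjusted p = 0.0278). Of 6 C/EBP factors, 1 was called, lower: Ddit3, which encodes the stress factor CHOP (175 ± 53.9 CPM in aOX40, 528 ± 191 CPM in IgG, log2 fold change -1.59, edgeR adjusted p = 0.0238). The medians of these 3 lists were 0.87, -0.48 and 0.13, beside 0.045 for all genes, and 2 of 5, 8 of 11 and 3 of 6 genes lay below 0. No gene passed among 4 tested MAF genes, 4 EGR and NAB genes or 10 genes of the integrated stress response, the pathway in which Atf3 and Ddit3 are induced under amino acid and endoplasmic reticulum stress. At an unadjusted edgeR p below 0.05 these lists held 3, 1 and 3 genes, DESeq2 called 2, 1 and 2, and limma voom called 0 in each. Their medians were -0.98, 0.92 and -0.15. Maff, a small MAF gene, averaged 137 ± 31.6 CPM in aOX40 and 227 ± 32.7 CPM in IgG (edgeR adjusted p = 0.0702), and Mafk 128 ± 61.3 CPM in aOX40 and 302 ± 139 CPM in IgG (edgeR adjusted p = 0.0953). Egr2, an EGR factor, averaged 51.2 ± 17.9 CPM in aOX40 and 20.1 ± 9.08 CPM in IgG (fitted log2 fold change 1.34, edgeR adjusted p = 0.0581), and Nab2, a corepressor of EGR proteins, 22.3 ± 9.93 CPM in aOX40 and 12.2 ± 8.48 CPM in IgG (edgeR adjusted p = 0.321). Nab2 overlaps the more abundant Stat6 on the other strand, so its level is uncertain. Nupr1 averaged 15.1 ± 6.01 CPM in aOX40 and 5.13 ± 2.31 CPM in IgG (edgeR adjusted p = 0.0511), and the cystine transporter gene Slc7a11 1206 ± 288 CPM in aOX40 and 679 ± 190 CPM in IgG (edgeR adjusted p = 0.0870). Both were higher in aOX40, but 6 of the 10 integrated stress response genes lay below 0 and 4 above. Chac1 of that list averaged 10.9 ± 3.81 CPM in aOX40 and 22.5 ± 8.73 CPM in IgG (edgeR adjusted p = 0.120). Atf4 belongs to the ATF and CREB list. It averaged 175 ± 9.64 CPM in aOX40 and 298 ± 81.2 CPM in IgG (edgeR adjusted p = 0.0788).

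Among 35 other immediate early genes tested, 3 rose and 3 fell, and the median log2 fold change was -0.060. Those that rose were the polo-like kinase gene Plk2 (146 ± 63.0 CPM in aOX40, 43.2 ± 11.4 CPM in IgG, log2 fold change 1.76, edgeR adjusted p = 0.0156), the kinase gene Sgk1 (146 ± 40.1 CPM in aOX40, 57.7 ± 15.4 CPM in IgG, edgeR adjusted p = 0.0210) and Dusp6, a phosphatase that inactivates ERK (372 ± 121 CPM in aOX40, 155 ± 62.1 CPM in IgG, edgeR adjusted p = 0.0459). Those that fell were the clock gene Per1 (38.6 ± 10.1 CPM in aOX40, 105 ± 23.0 CPM in IgG, edgeR adjusted p = 0.0186), the kinase gene Pim1 (190 ± 57.4 CPM in aOX40, 416 ± 55.6 CPM in IgG, edgeR adjusted p = 0.0251) and Zfp36, which encodes tristetraprolin, a protein that destabilises cytokine mRNAs (3220 ± 1002 CPM in aOX40, 7469 ± 2308 CPM in IgG, edgeR adjusted p = 0.0412). Of 25 genes of serum response factor and MAP kinase input, Rps6ka1, an ERK-activated kinase gene, rose (42.5 ± 15.4 CPM in aOX40, 12.5 ± 3.14 CPM in IgG, edgeR adjusted p = 0.0144) and Elk4, a partner of serum response factor, fell (21.7 ± 3.12 CPM in aOX40, 45.3 ± 9.30 CPM in IgG, edgeR adjusted p = 0.0360). The list's median was 0.41.

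Of 17 tested genes known as AP-1 targets, 2 rose and 1 fell, with a median of -0.21. Plaur, the urokinase receptor gene, averaged 3270 ± 774 CPM in aOX40 and 8298 ± 1950 CPM in IgG (fitted log2 fold change -1.34, edgeR adjusted p = 0.0194). Mmp9, the gelatinase of neutrophil granules, averaged 983 ± 444 CPM in aOX40 and 405 ± 118 CPM in IgG (fitted log2 fold change 1.28, edgeR adjusted p = 0.0467), with aOX40 replicate 1 inside the IgG range. The collagenase gene Mmp13 was called higher (edgeR adjusted p = 0.0330), but it had 0, 11.2 and 7.68 CPM in aOX40 replicates 1 to 3 and 0 CPM in 4 IgG libraries with 1.40 CPM in IgG replicate 6. That call rests on 2 of the 3 aOX40 libraries, and Mmp13 passed in 6 of the 16 alternatives in which it was tested.

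Of 12 genes of heat shock and tissue dissociation, 2 fell and the median was -0.13. Hsp90aa1 averaged 199 ± 71.8 CPM in aOX40 and 488 ± 46.6 CPM in IgG (edgeR adjusted p = 0.0182), and Hspa1b 250 ± 111 CPM in aOX40 and 772 ± 283 CPM in IgG (edgeR adjusted p = 0.0330). Hspa1b has a near-identical copy, Hspa1a, so its own level is uncertain. The list's summed level was 2270 to 4130 CPM in aOX40 and 2830 to 5138 CPM in IgG (exact permutation p = 0.143), and its part in the levels of Atf3 and Fosl2 was not tested. Of 13 mitochondrial mRNAs, 2 rose, mt-Nd4 (edgeR adjusted p = 0.0467) and mt-Cytb (0.0472), and the median was 0.73. Over all these lists edgeR called 18 genes; without aOX40 replicate 1 it called 10 on the lists, and without aOX40 replicate 2 or aOX40 replicate 3 it called 0, while DESeq2 and limma voom on all libraries called 37 and 18. Batf2, Creb5 and Pim1 also missed the threshold without aOX40 replicate 1. Zfp36 passed, of the 8 fits with 1 library left out, only in that without IgG replicate 2, Dusp6 only without aOX40 replicate 1 or IgG replicate 3, and Elk4 only without IgG replicate 2 or 4. Mmp9 passed only without aOX40 replicate 1 or IgG replicate 4, Hspa1b only without IgG replicate 3, 5 or 6, and mt-Nd4 and mt-Cytb only without IgG replicate 4.

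**Figure D5:**
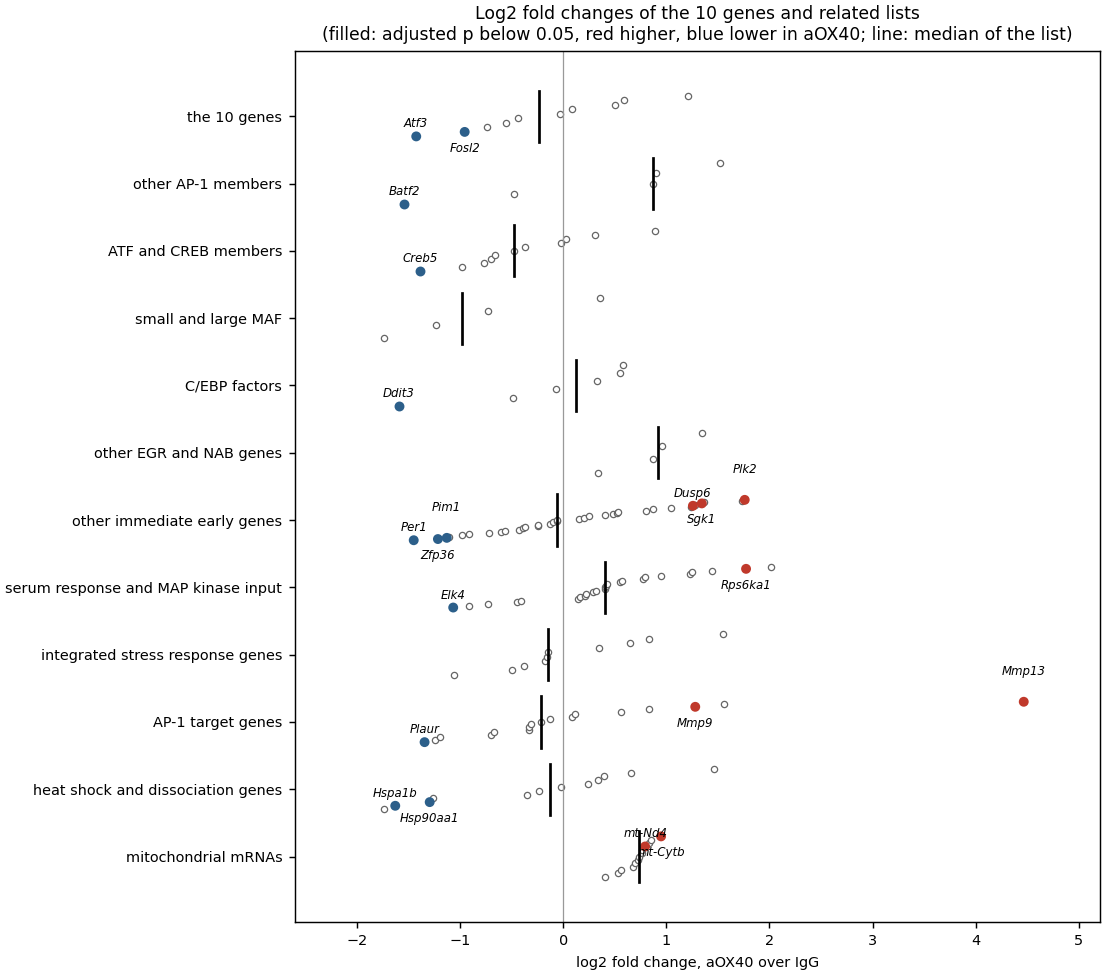
Log2 fold changes, aOX40 over IgG, of the 10 genes and the related lists, 1 symbol per gene tested, with named symbols filled blue (lower) or red (higher) where the edgeR adjusted p was below 0.05 and a line at each list's median. Most lists spread over both sides of 0, while the 13 mitochondrial mRNAs and the 4 EGR and NAB genes all lie above it.

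The genes whose log2(CPM + 0.5) followed that of Atf3 most closely over the 8 libraries were Ascc3, Serinc1, Svil, Zbp1, Gm6275, Timp2, 4930430E12Rik, Gm4596, Gm9761 and Pdhb, with Pearson's r of 0.962 to 0.984. This is a description of 8 libraries that share the group difference in Atf3. Ascc3, the closest, had 26.5, 38.9 and 27.6 CPM in aOX40 replicates 1 to 3, against 119, 64.7, 139, 60.7 and 50.8 CPM in IgG replicates 2 to 6. Like Atf3, it was highest in IgG replicates 2 and 4 and did not overlap between the groups.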

How the data were processed

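RNA of 8 neutrophil libraries, 3 aOX40 and 5 IgG, was analysed. The authors deposited a table of estimated counts per gene symbol, unscaled between libraries, in which 63.4% of values were whole within 0.01. STAR 2.6.0, Subread, featureCounts 1.5.1 and mm10 are named per the submitters' processing notes; the sources used here give neither their settings nor the annotation.

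Counts were rounded, filtered with filterByExpr, scaled by TMM and compared between groups with edgeR 4.0.16 (R 4.3.3), using the quasi-likelihood F test with its newer bias-adjusted dispersions. Benjamini-Hochberg adjustment ran over 13278 genes, with a threshold of 0.05. CPM is TMM-scaled. Single values were compared with an exact two-sided permutation test. Positions and exonic lengths came from GENCODE M21 (GRCm38). The fit was tested on simulated data, where it called 26% of 2-fold and 84% of 4-fold changes. The changed genes were drawn from those above a floor on mean CPM. A gene that did not pass may thus still differ by about 2-fold. In the same simulated data 16 unchanged genes were called, and in data simulated with no changed gene 0 were called.

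All 10 genes are described. Of each related list, up to 6 genes past the threshold are named, or 2 with the smallest p where none passed, with S100a8, S100a9, Csf3r and the 10 genes most like Atf3. A few markers, Atf4 and Chac1 were named after their values were seen. The genes and lists were chosen with earlier results of these data known. Alternatives were RLE, upper quartile and total-count scaling, 2 other filters, DESeq2 1.42.0, limma voom (limma 3.58.1), a length offset, each library left out, a replicate block and, added after the data were seen, edgeR's older dispersions.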

Additional observations from a re-analysis of the deposited data

How the results depend on the processing

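Of all genes tested, 750 passed; 452 passed with no filter on low counts, 1457 with DESeq2 and 320 with edgeR's older dispersions, and 0 to 589 with 1 library left out (0 without aOX40 replicate 2, with 2230 at an unadjusted edgeR p below 0.05; 59 without aOX40 replicate 3; 497 and 475 without IgG replicates 3 and 6). Of the 10 genes, 2 passed; 1 passed with total-count scaling, with no filter and with the length offset, 0 with the older dispersions (4 at an unadjusted edgeR p below 0.05) and 0 to 1 with 1 library left out. On the related lists 18 genes passed, with 34 under total-count scaling, 37 with DESeq2, 11 with the older dispersions and 0 to 17 with 1 library left out. Of all calls 46.8% were higher, against 78.0% with total-count scaling, which moved the median over all genes to 0.35 on the log2 scale (0.045 with TMM), 34.7% with DESeq2 and 34.1% with the older dispersions. The log2 fold change of Fosl2 missed the threshold at -0.67 with total-count scaling, -0.95 with no filter and with the older dispersions and -0.78 with the length offset, and ran from -1.18 to -0.77 with 1 library left out. That of Atf3 missed it at -1.42 with the older dispersions and ran from -1.54 to -1.21 with 1 library left out. Fos turned to 0.28 with total-count scaling and ran from -0.33 to 0.16 with 1 library left out, and Ier3 ran from -0.029 to 0.20. The causes were not tested. Replicate numbers 2 and 3 occur in both groups; same-numbered libraries deviated together with correlations of 0.0224 and 0.0469, so the numbers were not taken as pairs. With the replicate block, edgeR called 0 genes overall (2594 at an unadjusted p below 0.05), 0 of the 10 (5 unadjusted) and 0 on the lists. Every other replicate number occurs in 1 group alone, so in that fit the group difference rests on replicates 2 and 3. The fit leaves little to estimate the spread from, and its lack of calls cannot decide whether the genes differ. In it, Fos was at 0.24, Fosb at 0.68, Fosl2 at -0.79, Atf3 at -1.37 and Ier2 at 2.31. The p-values rest on 3 and 5 libraries; the lowest count of any of the 10 genes in a library was 161, for Fosb.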
